A study of Mus musculus with 90 samples.

Results

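The regions described here were stretches of H3K4me3, trimethylation of lysine 4 of histone H3, that held several separate peaks of the methyltransferase Mll2 in mouse embryonic stem cells. Overlapping autosomal H3K4me3 peaks of 2 libraries were merged, and a region was kept where both libraries had a peak in it and where it was at most 5000 bp wide. Members were chosen by their Mll2 peak calls. A region counted as one where 2 or more separate peaks of Mll2 serum 9172 and 2 or more of Mll2 serum 9175 overlapped it by at least 1 bp. By this rule 508 regions were members, out of 18894 H3K4me3 regions in all and out of 17999 that were autosomal and within the width limit, or 2.82% of the latter. Exactly 1 peak of each serum lay in 13062 regions, called single-peak regions below, and each member was paired with the unused single-peak region nearest to it in width. These pairs differed by a median of 0 bp and by at most 17 bp.

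The series holds 90 samples on Mll2 and H3K4me3 in mouse embryonic stem cells, of which 5 chromatin immunoprecipitation sequencing (ChIP-seq) libraries were used. All 5 came from wild-type V6.5 embryonic stem cells. H3K4me3 replicates 1 and 3 were made with antibody 28 from cells infected with a lentivirus that carried shGFP, a control hairpin against GFP. For the Mll2 libraries of serum 9172 and serum 9175 and for the Menin library the labels name no hairpin, and they do not say whether any of these libraries came from the same cell preparation as the H3K4me3 libraries.

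Mll2, also known as KMT2B, is a catalytic subunit of one of the COMPASS-type complexes, which methylate lysine 4 of histone H3. It carries a CXXC domain, which binds unmethylated CpG dinucleotides, and it is known in embryonic stem cells for its part in H3K4me3 at bivalent promoters, which also carry the repressive mark H3K27me3. Menin binds the amino-terminal part of Mll2 and of its relative Mll1 and is a subunit of the complexes they form. H3K4me3 marks promoters, where it typically lies on the nucleosomes on both sides of a nucleosome-depleted start site.

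The libraries held between 19912 and 43544 peaks and between 11550409 and 21936546 tags after removal of duplicates, with the fewest tags in the Menin library and the most in H3K4me3 replicate 1. Peaks took up 50.9% and 46.8% of the tags of H3K4me3 replicates 1 and 3, 9.69% and 12.4% of those of serum 9172 and serum 9175, and 22.5% of those of Menin. Both Mll2 libraries were set against the same input library, so their peaks are not fully independent of each other. There was 1 library for each serum and for Menin, and the labels do not tell if H3K4me3 replicates 1 and 3 were separate cultures. Regions of a library are not replicates of a condition, so no test over samples was possible, and every 95% interval below covers counting error only. Positions are in mouse build mm9, and the regions were not assigned to genes or read as sequence here because no annotation or genome of that build was used.

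Members were mostly regions with a pair of Mll2 peaks. Of the 508 members, 423 had exactly 2 peaks in both sera, or 83.3% (95% exact Clopper-Pearson interval 79.7 to 86.4%). A further 48 had 3 peaks in serum 9172 and 2 in serum 9175, 22 had 2 and 3, and 9 had 3 and 3. The most were 4 in serum 9172 with 2 or 3 in serum 9175, in 6 members. In all they held 1085 peaks of serum 9172 and 1050 of serum 9175.

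Each serum alone gave more such regions. Among the autosomal regions within the width limit, 1232 held 2 or more peaks of serum 9172 (6.84%) and 897 held 2 or more of serum 9175 (4.98%). The members were 41.2% of the former and 56.6% of the latter. Where only 1 serum had 2 or more peaks, the other nearly always had exactly 1, in 700 of 724 regions for serum 9172 and in 367 of 389 for serum 9175. The most uneven were 5 regions with 4 peaks in 1 serum and 1 in the other, 4 of them split in serum 9172 and 1 in serum 9175. Those with the highest serum 9175 fold were chr11:101947956-101951222 and chr7:85721761-85725045, each with 4 peaks of serum 9172 and 1 of serum 9175. In both, the serum 9175 peak (2810 and 2639 bp long) overlapped all 4 of the serum 9172 peaks, which were 440 to 1014 bp long in the former region and 463 to 871 bp in the latter.

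Members were wide regions. Their widths ran from 1190 to 4978 bp with a median of 3328.5 bp and quartiles of 2610.25 and 4126.5 bp, against a median of 2020 bp over all single-peak regions. Among regions with peaks of both sera the share of members climbed with each width class, from 0.229% of those up to 1500 bp (7 of 3051) over 3.65% at 2500 to 3000 bp to 29.5% at 4500 to 5000 bp (67 of 227). The width limit of the rule therefore cuts through the trend, and 158 of 337 wider autosomal regions (46.9%) also had 2 or more peaks in both sera. The widest members were chr6:145810670-145815647 (4978 bp) and chr19:45088851-45093827 (4977 bp). The narrowest regions left out for their width alone were chr13:23835076-23840078 (5003 bp) and chr17:57385793-57390805 (5013 bp), each with 2 peaks in each serum. On chromosome X, which the rule leaves out, 7 of 550 regions (1.27%) had 2 or more in both sera, and the share by autosome ran from 1.79% on chromosome 6 to 3.79% on chromosome 19.

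The 5 members with the strongest second Mll2 peak show the arrangement most clearly. They were ranked by the authors' fold enrichment, the ChIP signal at a peak over the background that the peak caller estimated, taking the lower of the 2 sera. In the first of them, chr5:115221964-115226534, the H3K4me3 peak had a fold enrichment of 70.1 in replicate 1 and 81.3 in replicate 3. Serum 9172 had summits at -692 and 408 bp from the region's centre, where a negative distance lies to the left, with folds of 49.98 and 46.99. Serum 9175 had summits at -763 and 520 bp, with folds of 38.3 and 41.6. Menin also had a peak over each, with summits at -751 bp (fold 11.4) and 607 bp (fold 20.1). Both sera and Menin thus placed a pair of summits at nearly the same places, inside an H3K4me3 domain that both libraries called as 1 peak.

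The other 4 had the same layout on other chromosomes. At chr15:84683324-84687459 the folds of the left and right peak were 26.1 and 35.1 in serum 9172, 26.9 and 32.6 in serum 9175, and 11.1 and 24.2 in Menin, and a further, weak Menin peak (fold 6.5) lay across the region's left edge. At chr17:28043401-28047546 they were 39.1 and 29.1 in serum 9172, 41.3 and 26.0 in serum 9175, and 14.4 and 17.2 in Menin. H3K4me3 was called as 1 peak in both libraries in these regions, with folds of 90.3 and 76.7 on chromosome 15 and of 49.7 and 56.6 on chromosome 17 (replicate 1 first). In the remaining members of this rank H3K4me3 replicate 3 was also called as a pair of peaks, while replicate 1 was called as 1.

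At chr4:155607604-155610825 the pair of peaks had folds of 25.4 and 40.3 in serum 9172 and of 32.6 and 61.1 in serum 9175, and serum 9172 had a further, weak peak (fold 8.95) at the left edge. H3K4me3 replicate 3 had peaks with folds of 86.5 and 65.7 over the same places, and Menin had 34.8 and 28.7. At chr17:15633606-15638186 the folds were 23.8 and 33.7 for serum 9172, and for serum 9175 they were 22.45 and 32.03. There H3K4me3 replicate 3 had 116 and 91.8 and Menin 16.1 and 8.94, so that the stronger Menin and H3K4me3 peaks lay at the left and the stronger Mll2 peaks at the right.

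**Figure D1:**
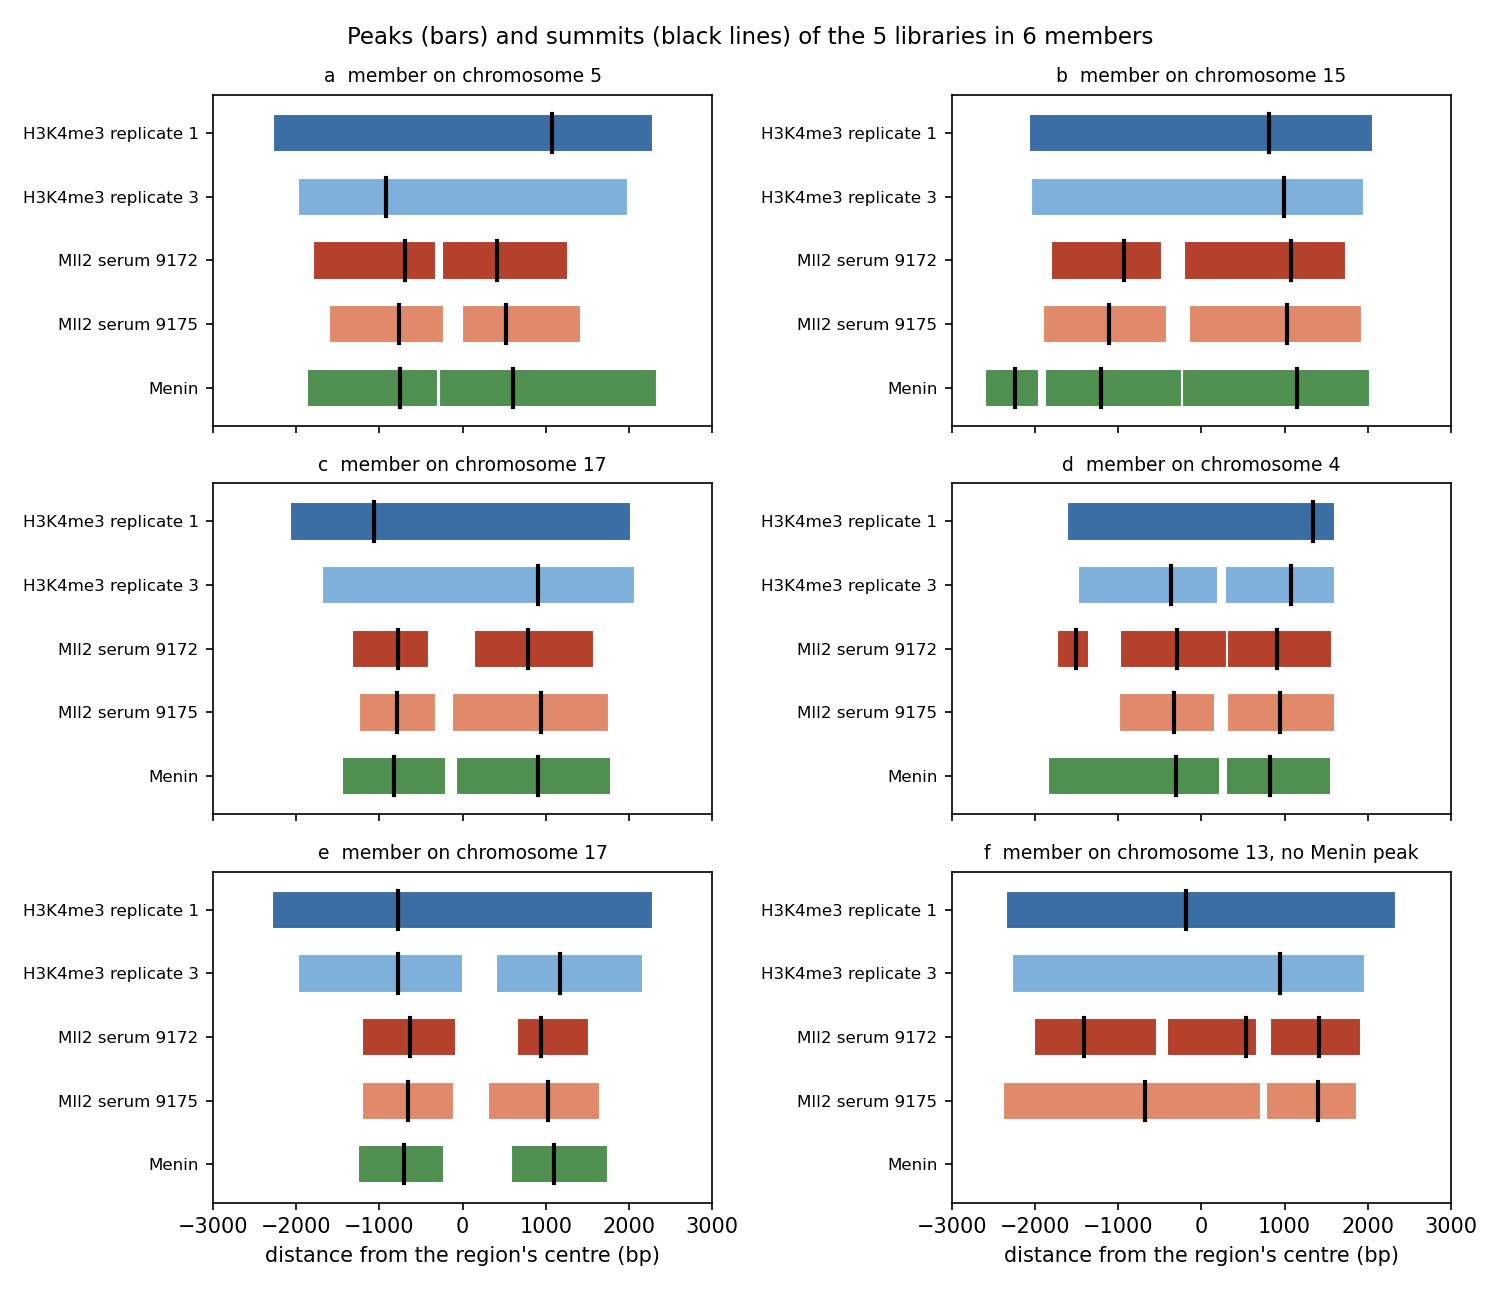
Peaks (bars) and their summits (black lines) of H3K4me3 replicates 1 and 3, Mll2 serum 9172, Mll2 serum 9175 and Menin in 6 members, against the distance from the region's centre in bp. Panels a to e show the 5 members with the strongest second Mll2 peak, where both sera and Menin have paired summits under an H3K4me3 domain of 1 or 2 peaks, and panel f shows the member on chromosome 13 with the highest serum 9175 fold among those without a Menin peak.

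Neighbouring Mll2 summits within a member lay a little over 1 kb apart. The distance from 1 summit to the next had a median of 1342 bp in serum 9172 (577 neighbouring pairs, quartiles 1051 and 1783, range 263 to 4049) and of 1439.5 bp in serum 9175 (542 pairs, quartiles 1084.5 and 1883.25, range 485 to 4178). Between 750 and 2000 bp lay 74.7% of the distances in serum 9172 and 74.5% in serum 9175. Summits under 500 bp apart were rare, with 9 pairs in serum 9172 and 1 in serum 9175. Since the rule chose regions with several peaks of limited width, these values describe the members and are not compared with other regions.

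The distance grew with the width of the region. In members of up to 2000 bp (45 members) its median was 909 bp in serum 9172 and 978 bp in serum 9175, and in those of 4000 to 5000 bp (145 members) it was 1713.5 and 1865.5 bp. As a share of the region's width, however, the median fell from 0.518 to 0.382 in serum 9172. In serum 9175 it fell from 0.547 to 0.422. Peaks had to overlap the region, so narrow regions leave less room between summits, and some rise with width follows from the rule. Distances were taken between neighbouring summits, so further peaks in a region shorten them as a share of its width. How far the rule and the number of peaks account for these trends was not tested. The summits lay inside the H3K4me3 region for 96.2% of the members' serum 9172 peaks and for 94.95% of their serum 9175 peaks.

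Between the peaks the uncalled stretch was short in many members. Its median was 324 bp in serum 9172 and 247.5 bp in serum 9175, and 33.4% and 43.0% of the gaps were under 200 bp. When peaks of a serum less than 200 bp apart were merged before counting, 258 members were left, with a median summit distance of 1763 bp. Asking for a score of at least 100 for each Mll2 peak left 228 members with a median of 1622 bp, and asking for a fold enrichment of at least 10 left 118 with 1603.5 bp. How many members there were thus depended on where a peak was cut in pieces and on the threshold for the weaker one.

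**Figure D2:**
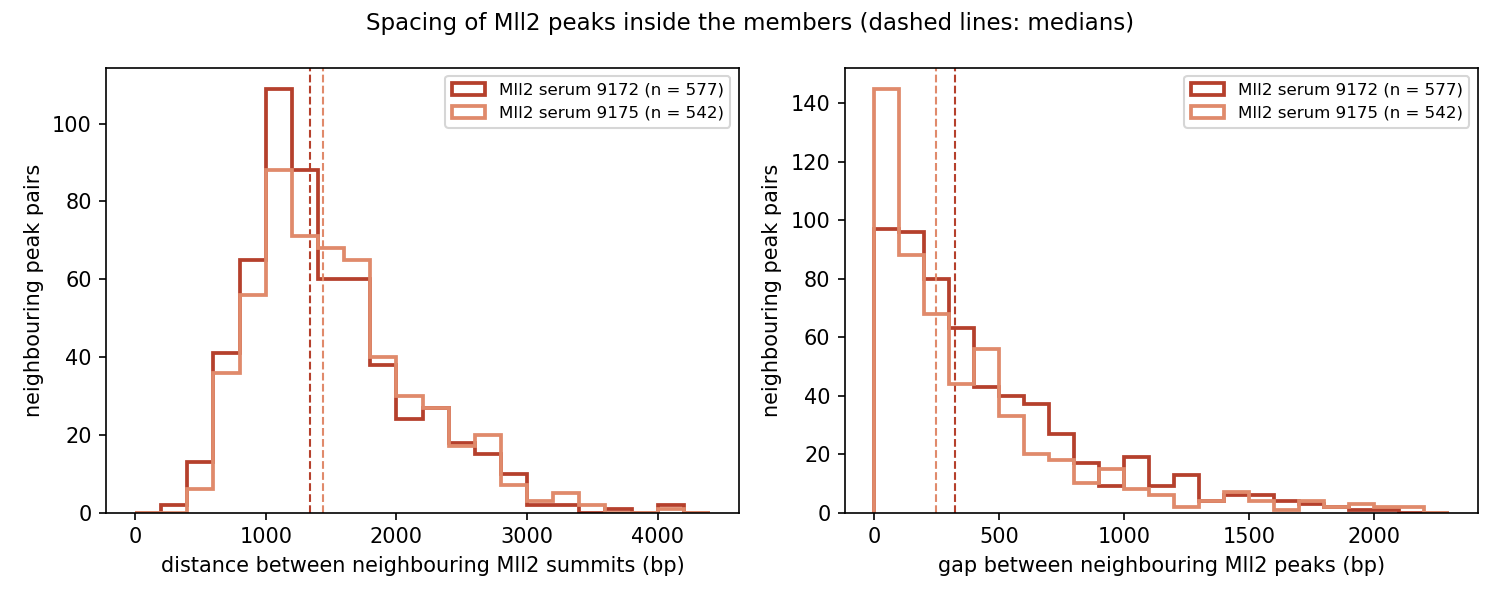
Histograms of the distance between neighbouring Mll2 summits (left, bins of 200 bp) and of the gap between neighbouring Mll2 peaks (right, bins of 100 bp) in the 508 members, for serum 9172 (577 pairs) and serum 9175 (542 pairs), with dashed lines at the medians. Summit distances gather at 750 to 2000 bp in both sera, while gaps are most frequent at the shortest lengths.

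The extremes of the distance differed in kind. The widest mean distance over the sera, 4093 bp, was at chr7:3654865-3658974, where the right-hand summits of both sera lay beyond the region's edge, 2738 and 2858 bp from the centre of a region 4110 bp wide. Next were chr2:32816013-32820836 with 3672 bp and chr5:110533074-110537935 with 3352 bp. In the latter the summits stayed inside the region, with folds of 7.46 and 23.9 in serum 9172 and of 8.15 and 18.8 in serum 9175, and Menin had 3 peaks. For the closest summits, each serum's shortest distance was taken and averaged over the sera, whether or not it was between the same summits. The lowest values were 525 bp at chr13:23774436-23778057, 528 bp at chr11:102975666-102979916 and 577.5 bp at chr5:130416604-130419676. On chromosome 11 the shortest distance was between the right-hand pair of 3 serum 9172 summits and between the only pair of serum 9175 summits, so the sera did not measure the same pair there. In the last of these H3K4me3 replicate 1 was called as 2 peaks (folds 33.8 and 48.2), replicate 3 as 1 peak (75.4) and Menin as 1 peak (15.6).

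Members with the most Mll2 peaks had 4 in serum 9172 and 3 in serum 9175. At chr11:94850077-94854949 the serum 9172 folds were 7.45, 24.6, 6.71 and 10.4 from left to right, and those of serum 9175 were 11.1, 33.4 and 19.6. The strongest peak of both sera, the stronger Menin peak (fold 47.0) and the stronger H3K4me3 replicate 3 peak (39.7) had their summits within the stretch from -256 to -90 bp of the centre. At chr19:46400907-46404371 serum 9172 had 5.97, 13.4, 35.1 and 4.3 and serum 9175 had 12.2, 27.7 and 14.6, again with 1 dominant peak. At chr7:52593124-52597072 the folds were more even, 6.71, 5.77, 13.4 and 11.9 in serum 9172 and 11.4, 9.75 and 11.4 in serum 9175.

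To ask whether both sera cut the members at the same places, their peaks were paired by overlap. In 331 of the 508 members (65.2%, interval 60.8 to 69.3%) each peak of one serum overlapped exactly 1 peak of the other. The rule asked only for the number of peaks in each serum and not for their places. Among the members with 2 peaks in both sera the share was 327 of 423 (77.3%), and the results on pairs below are for these 327. Paired summits lay a median of 80.5 bp apart between the sera, and the midpoints of the gaps a median of 84 bp apart. By a stricter measure, summits within 250 bp of each other, 52.0% of the 508 members paired one to one.

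The peaks of a pair were usually unequal, and the sera ranked them alike. The stronger peak had a median of 1.70 times the fold enrichment of the weaker in serum 9172 and 1.67 times in serum 9175. The same peak was the stronger in both sera in 268 of 327 pairs (82.0%, interval 77.4 to 86.0%). Where the ratio was 2 or more in both sera, this held in all 74 pairs. Both sera bind the same protein and share 1 input library, and these values describe how far their peak lists repeat each other.

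The median Mll2 peak of the members was shorter and weaker than that of single-peak regions of the same width. In serum 9172 the strongest peak of a member had a median fold of 15.7 and the second 8.87, against 21.1 for the peak of the width-matched regions. In serum 9175 the values were 16.3 and 9.71, against 22.8. Peaks of members were a median of 912 bp long in serum 9172 and 1064.5 bp in serum 9175, against 1569.5 and 1734 bp. Together, however, they covered more of the region, a median of 62.2% against 50.7% in serum 9172 and of 69.9% against 55.4% in serum 9175. The quartile ranges of the strongest fold overlapped, 11.9 to 20.9 in members and 16.4 to 25.4 in matched regions in serum 9172, so single members went against the medians, as the member on chromosome 5 above did. The rule used these peaks, so the differences describe the members.

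Menin was not used to choose the members, and its peaks were split in members more often than in single-peak regions of the same width. At least 1 Menin peak lay in 500 of 508 members (98.4%) and in 502 of 508 width-matched single-peak regions (98.8%), beside 89.2% of all autosomal regions within the width limit. This difference was -0.394 percentage points, with a 95% Newcombe interval of -2.03 to 1.18. Members with 2 or more Menin peaks were 221 (43.5%, interval 39.1 to 47.9%), width-matched regions 97 (19.1%, 15.8 to 22.8%), and all autosomal regions within the limit 11.2%. The difference was 24.4 points (18.8 to 29.8), larger than its counting error. There were 3 or more Menin peaks in 44 members (8.66%) and in 17 width-matched regions (3.35%).

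The difference was also present in each of 4 width classes, against all single-peak regions of the class and without pairing on width. Widths could still differ within a class. Of the regions with both sera, 3051 were up to 1500 bp, with 7 members, and 3666 were 1500 to 2000 bp, with 38 members. How far this added to the differences by class was not tested. With 2 or more Menin peaks there were 22.2% of members against 5.34% of all single-peak regions up to 2000 bp, 33.1% against 12.3% at 2000 to 3000 bp, 43.9% against 20.9% at 3000 to 4000 bp and 60.0% against 30.3% at 4000 to 5000 bp. The intervals of these 4 differences did not include 0. Regions where only 1 serum had 2 or more peaks had shares between those of single-peak regions and of members (43.5%). These shares are given without intervals, and whether they differed from that of members beyond counting error was not tested. Weighted to the members' widths, 20.4% of single-peak regions, 29.6% of regions split in serum 9172 alone (700 regions) and 38.8% of those split in serum 9175 alone (367 regions) had 2 or more Menin peaks.

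**Figure D3:**
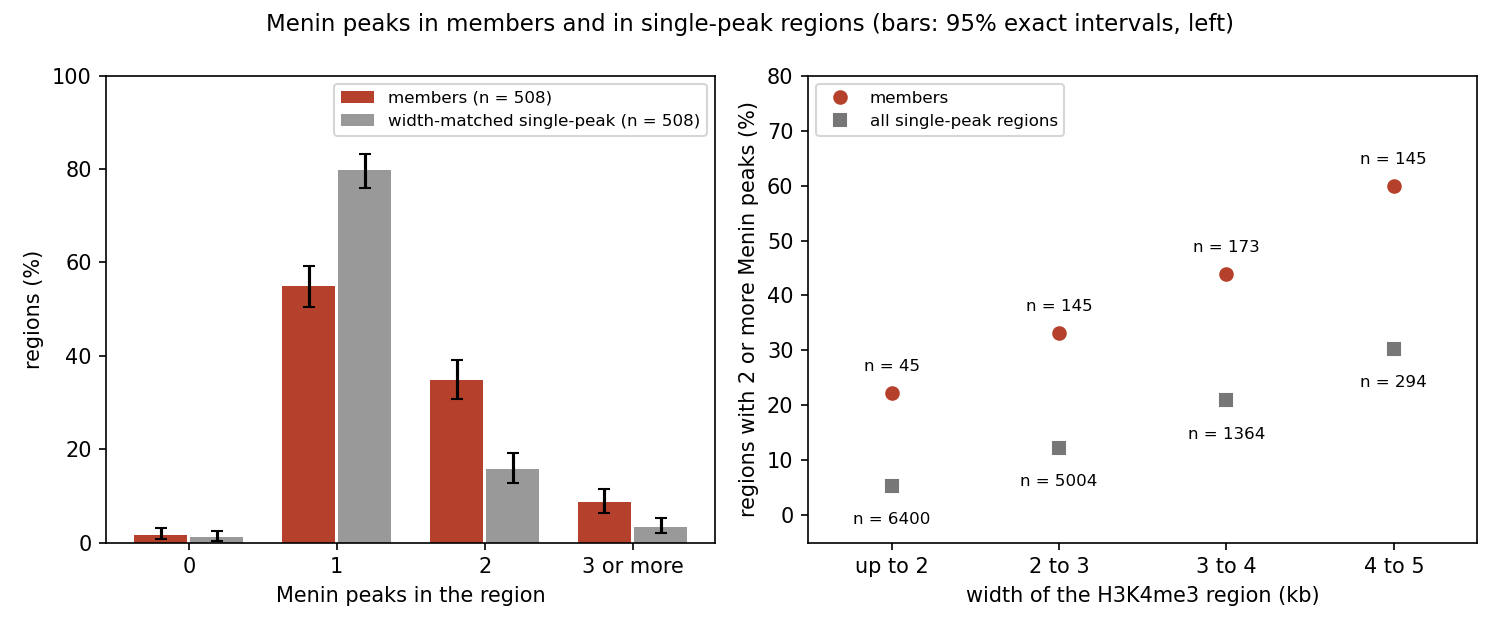
Left, share of regions in percent with 0, 1, 2 and 3 or more Menin peaks, for the 508 members (red bars) and the 508 width-matched single-peak regions (grey bars), with 95% exact Clopper-Pearson intervals. Right, share with 2 or more Menin peaks by width of the H3K4me3 region for members (circles) and all single-peak regions (squares), where members stand higher in each of the 4 width classes.

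The size of the difference depended on the thresholds and on the H3K4me3 library. With Menin peaks of a fold enrichment of at least 10 it was 10.4 points (15.2% against 4.72%), with Menin peaks less than 200 bp apart merged 12.0 points (22.2% against 10.2%), and with regions made without H3K4me3 replicate 1 13.5 points (7.18 to 19.7). With members that needed 2 or more peaks of serum 9172 and 1 or more of serum 9175 it was 14.7 points, and with Mll2 peaks of a fold of at least 10 it was 38.1 points. Members had less H3K4me3 per kb than their matched regions, as given below. Pairing on both width and H3K4me3 tags per kb of replicate 1 left 43.5% against 26.6%, a difference of 16.9 points (11.1 to 22.6).

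Split Menin was more frequent in members with more H3K4me3 and in those with wider Mll2 gaps. In 3 classes by H3K4me3 tags per kb in replicate 1, of 170, 169 and 169 members, the share with 2 or more Menin peaks was 32.4%, 45.6% and 52.7% from the lowest class to the highest. Single-peak regions of the same level class, paired to the members by nearest width, had 23.5%, 30.2% and 18.3%, and the pairs differed in width by up to 686, 124 and 17 bp. The difference was 8.82 points in the lowest class (interval -0.720 to 18.2, which includes 0), 15.4 in the middle class (5.04 to 25.3) and 34.3 in the highest (24.4 to 43.3). The step from the middle to the highest class came with a higher share in members and a lower one in the paired regions. The members of the lowest and the highest class also differed in median width, 2622 and 3805 bp. By the widest Mll2 gap, 32.4% of the 250 members with a gap under 200 bp in at least 1 serum had 2 or more Menin peaks, against 49.0% of 155 with gaps of 200 to under 500 bp and 62.1% of 103 with gaps of 500 bp or more in both sera. Their median widths were 2992, 3480 and 3969 bp, so gap and width moved together, and their separate parts in this were not tested.

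Where Menin was split, a gap between its peaks often overlapped a gap between Mll2 peaks. Of the 221 members with 2 or more Menin peaks, 151 (68.3%, interval 61.8 to 74.4%) had a Menin gap that overlapped a gap of serum 9175. Those serum 9175 gaps were up to 2167 bp long in members, and the overlap that gap length alone would give was not tested. In the 327 pairs that matched one to one, a single Menin peak lay over both Mll2 peaks in 169 (51.7%), separate Menin peaks over each in 108 (33.0%), Menin over 1 of them only in 46 (14.1%) and over neither in 4 (1.22%). In these 108 pairs the separate Menin summits lay a median of 105.5 bp from the serum 9175 summit they covered.

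The Menin summit was on the side of the stronger Mll2 peak in most pairs of some of these layouts, and in others the counting error did not allow an order. Where the sera ranked the peaks alike and 1 Menin peak lay over both, its summit was nearer the stronger Mll2 summit in 91 of 132 pairs (68.9%, interval 60.3 to 76.7%). Where Menin lay over only 1 of them, it was the stronger in 31 of 38 (81.6%, 65.7 to 92.3%). Where Menin had a separate peak over each, the stronger Menin peak was at the stronger Mll2 peak in 55 of 94 (58.5%, 47.9 to 68.6%), an interval that includes 50%. In only 26 of the 169 pairs under a single Menin peak (15.4%) did its summit lie in the central part of the stretch between the serum 9175 summits, from 25 to 75% of the way.

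The most Menin peaks in a member were 4, in 2 members near each other on chromosome 17, and 42 members had 3. At chr17:35186460-35189655 the 4 Menin folds were 14.8, 11.9, 7.95 and 15.7 from left to right, beside serum 9172 folds of 7.73 and 8.18 and serum 9175 folds of 7.8 and 8.4. At chr17:35200907-35203151 the 4 Menin peaks were weak (folds 4.97, 5.96, 6.39 and 6.92). Among the 42 members with 3 Menin peaks, the highest Menin fold was at chr17:34739344-34744307. There the Menin peak over the left Mll2 peak had a fold of 107 and that over the right one 24.3, while serum 9172 had 9.31 and 19.4 and serum 9175 13.7 and 17.9. The order of these peaks by Menin was the reverse of that by Mll2.

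The 8 members without a Menin peak ranged from 8.53 to 21.8 in the fold of their strongest serum 9172 peak and from 7.14 to 16.3 in that of serum 9175, against medians of 15.7 and 16.3 over all members. In serum 9175 none of the 8 was above the members' median. Of them 5 lay in a single stretch of chromosome 13, between 21806631 and 23845483, which was singled out after the values were seen. Highest in serum 9175 were chr13:21806631-21811318 with a fold of 16.3 (17.2 in serum 9172), chr13:22125772-22127908 with 15.5 (17.9) and chr13:23774436-23778057 with 14.2 (13.8). In this stretch 55 of 68 H3K4me3 regions (80.9%) and 9 of its 14 members had a Menin peak. With chromosome 13 left out the difference in split Menin was 23.8 points (18.0 to 29.3).

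H3K4me3 itself was mostly called as 1 peak across the members. In replicate 1, 33 members (6.50%) had 2 or more H3K4me3 peaks, against 4.33% of the width-matched regions and 2.34% of all autosomal regions within the limit. In replicate 3, which has fewer tags, 103 members (20.3%) had 2 or more, against 5.71% and 2.32%. Where replicate 3 was split, a gap overlapped a gap of serum 9175 in 78 of 103 members (75.7%, interval 66.3 to 83.6%), and in replicate 1 in 11 of 33 (33.3%, 18.0 to 51.8%). Members with split H3K4me3 in replicate 3 also had 2 or more Menin peaks in 55.3% (57 of 103, interval 45.2 to 65.1%). Those with 1 H3K4me3 peak had them in 40.5% (164 of 405, 35.7 to 45.5%). The intervals overlap slightly, and the widths of these groups were not compared. These H3K4me3 peaks were used to make the regions, and the values are descriptions.

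The strongest H3K4me3 summit lay under an Mll2 peak in nearly every member, and seldom midway between the outermost Mll2 summits. It was under a serum 9175 peak in 95.3% of members in replicate 1 and in 95.7% in replicate 3, and in a gap between them in 4.72% and 3.54%. Serum 9175 peaks covered a median of 69.9% of a member and their gaps had a median of 247.5 bp, so gaps took up little of a region. The same share is not given for width-matched regions. It lay between the outermost serum 9175 summits in 59.4% (interval 55.0 to 63.8%) in replicate 1 and in 59.8% (55.4 to 64.1%) in replicate 3. In the central part of that stretch, from 25 to 75% of the way, it lay in 14.8% and 13.6%. The nearest serum 9175 summit was a median of 220 bp away in replicate 1 and 167.5 bp in replicate 3. In width-matched regions, with only 1 such summit to measure from, the medians were 297 and 207 bp. A nearest of several summits is closer by construction. With the outermost summits of both sera as limits the share between them in replicate 1 was 71.1%, since the stretch is then wider.

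The H3K4me3 maximum was on the side of the stronger Mll2 peak in most pairs that both sera ranked alike. Where both sera ranked the peaks of a pair alike, the strongest H3K4me3 summit was nearer the stronger Mll2 summit in 222 of 268 members (82.8%, interval 77.8 to 87.2%) in replicate 1 and in 220 of 268 (82.1%, 77.0 to 86.5%) in replicate 3. How often both libraries had it on the same side is not given here. At chr17:28043401-28047546, where both sera were stronger at the left, it lay at -1060 bp in replicate 1 and at 910 bp in replicate 3. The strongest H3K4me3 summit was also off the centre of the region more often than in single-peak regions. The middle 40% of the region held it in 60.4% of members and 83.1% of width-matched regions in replicate 1, and in 62.4% and 83.7% in replicate 3.

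**Figure D4:**
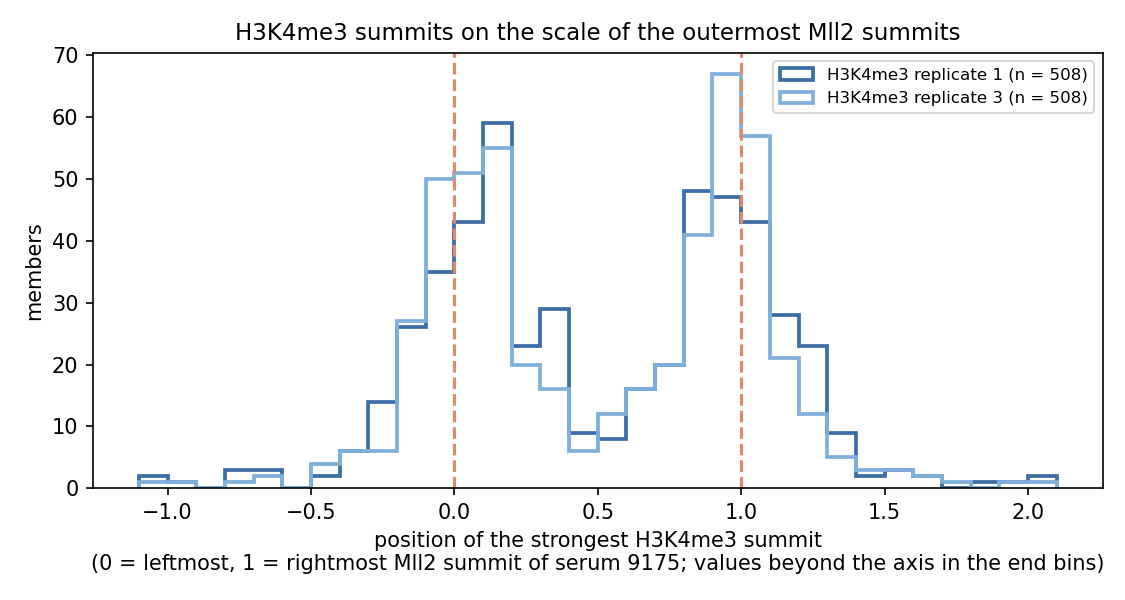
Position of the strongest H3K4me3 summit in the 508 members, on a scale where 0 is the leftmost and 1 the rightmost Mll2 summit of serum 9175 (dashed lines), for H3K4me3 replicate 1 and replicate 3, with values beyond the axis put in the end bins. Both libraries show a mode at each Mll2 summit and few members midway between them.

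The members with the highest H3K4me3 fold in replicate 1 each had 2 Mll2 peaks of unequal fold in both sera. At chr1:9931457-9934935 H3K4me3 had folds of 117 and 125 in replicates 1 and 3, with summits 851 and 852 bp right of the centre. The nearest summits were the strong ones of serum 9172 (fold 21.8, 946 bp right) and serum 9175 (14.7, 1049 bp right), and the only Menin peak (13.8) had its summit 1062 bp right. The second peak of serum 9172 (fold 5.42) and that of serum 9175 (7.65) did not share a place, with summits at -1912 and -64 bp from the centre. At chr19:37280715-37284737 the H3K4me3 folds were 104 and 97.0, and those of Mll2 24.7 and 8.33 in serum 9172 and 27.8 and 7.52 in serum 9175. At chr11:109471433-109473863 they were 103 and 46.5, and those of Mll2 12.7 and 6.94 in serum 9172 and 15.5 and 8.34 in serum 9175. All 3 had 1 Menin peak.

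Members carried less H3K4me3 and less Mll2 per kb of peak than single-peak regions of the same width. The rule used the H3K4me3 and Mll2 peaks, so their differences and intervals describe the members. In tags per kb of peak per 1000000 kept tags, the median in H3K4me3 replicate 1 was 10.4 in members (quartiles 6.25 and 15.3) and 15.8 in width-matched regions (12.1 and 20.4), a ratio of 0.655. In replicate 3 it was 9.97 (5.80 and 17.0) and 20.5 (14.8 and 25.4), a ratio of 0.487. The quartile ranges of members and matched regions overlapped in both libraries. The members' upper quartile was nevertheless below the matched median in both, 15.3 against 15.8 in replicate 1 and 17.0 against 20.5 in replicate 3. The peak height went the same way, with a median fold of the strongest peak of 41.1 against 62.4 in replicate 1 and of 37.6 against 66.3 in replicate 3. Against all single-peak regions without pairing on width, the ratios were nearer to 1, at 0.860 and 0.745.

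For Mll2 the median was 3.17 in members and 4.59 in width-matched regions in serum 9172 (ratio 0.691), and 3.46 and 5.03 in serum 9175 (ratio 0.688). Divided by the width of the region in place of the summed peak length, the ratios were 0.923 (interval 0.850 to 0.988) in serum 9172 and 0.935 (0.815 to 1.035) in serum 9175, and the latter interval includes 1. For Menin, which the rule did not use, the median per kb of peak was 5.23 in the 500 members with a Menin peak and 5.85 in the 502 matched regions, a ratio of 0.893 (interval 0.848 to 0.947). This direction depended on the measure. Per kb of region the Menin ratio was 1.23 (1.099 to 1.36), and the median fold of the strongest Menin peak was 13.1 in both classes.

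**Figure D5:**
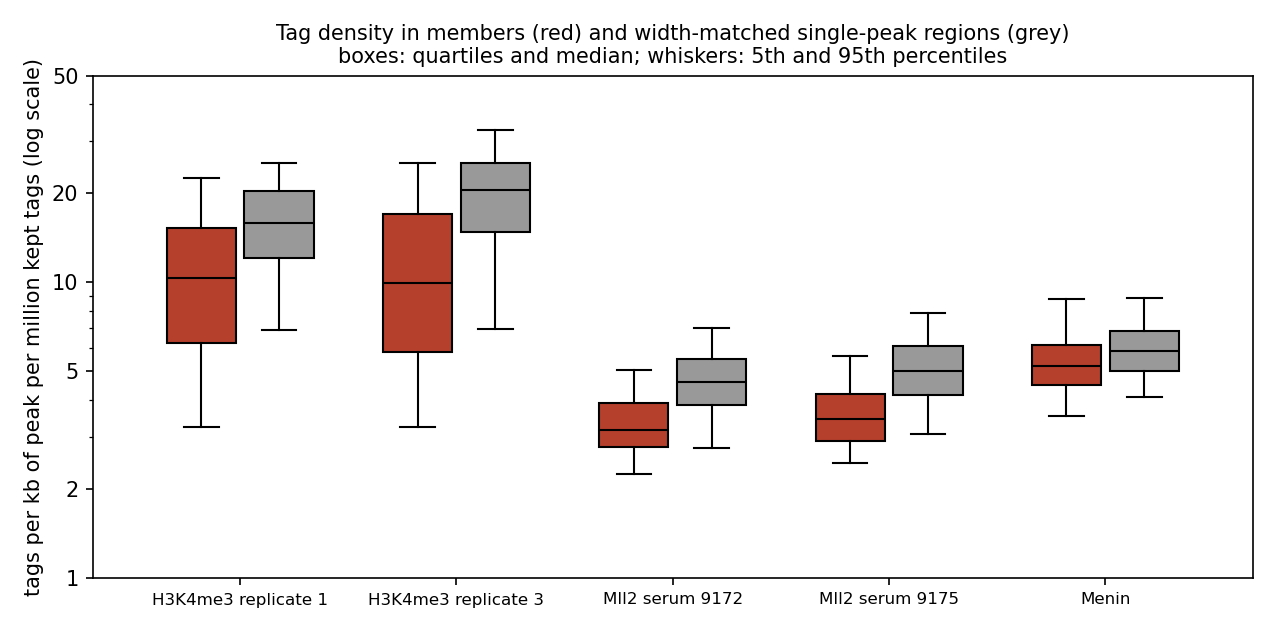
ChIP tags per kb of peak per 1000000 kept tags, on a log scale, in members (red) and width-matched single-peak regions (grey) for each of the 5 libraries. Boxes span the quartiles with the median as a line and whiskers reach the 5th and 95th percentiles. The member medians are lower in each library by this measure, with the widest distance in H3K4me3 replicate 3 (9.97 against 20.5) and the smallest in Menin (5.23 against 5.85).

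Members stood nearer to other H3K4me3 regions. The nearest other H3K4me3 region was a median of 12227.5 bp away from members (quartiles 3223.75 and 36141.5 bp) and 27508 bp away from width-matched regions (9515.75 and 68693 bp). Another region lay within 10000 bp of 45.3% of members, 25.8% of matched regions and 30.9% of all single-peak regions. The difference from matched regions was 19.5 points (interval 13.6 to 25.1). Against all single-peak regions, without pairing on width, it was 14.3 points (10.0 to 18.8). With pairing on both width and H3K4me3 tags per kb of replicate 1 the difference was 10.8 points (4.81 to 16.7). Asking for Mll2 peaks of a fold of at least 10, which leaves 118 members, gave 7.63 points with an interval of -4.64 to 19.6 that includes 0, and asking for a score of at least 100 gave 13.2 points (4.28 to 21.7). In 14 members an Mll2 peak reached into another H3K4me3 region as well, and in 0 of the 508 matched regions, which allows a share of up to 0.724% by the exact interval. Another member lay within 10000 bp of 16 members (3.15%) and within 100000 bp of 97 (19.1%). Members were 2.82% of the autosomal regions within the width limit. Whether they lay near each other more or less often than this share would give was not tested.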

How the data were processed

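Peak lists of 5 ChIP-seq libraries of V6.5 cells were used. Per the file headers, the authors ran MACS 1.4.2 on each library and an input, with the p cutoff set to 1e-05 and at most 1 tag allowed at each position. The submitters' processing notes name mm9 and Bowtie 0.12.9. Tag counts were deposited as whole ChIP tags of each peak, without normalization. The deposited fold enrichment is a ratio to the background that MACS estimated, and the deposited score is minus 10 times the log10 of its p. The deposited false discovery rate, in percent, was not used. Both come from the authors, peak by peak, and were used only inside a list, to rank, filter or describe its peaks.

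Overlap meant at least 1 bp. Tags per kb are the summed tags of a library's peaks in a region over their summed length, per 1000000 kept tags. Each serum and Menin had 1 library, so no test over samples exists. Shares have Clopper-Pearson intervals and differences of shares Newcombe intervals from Wilson limits, both at 95%. The limits of a ratio of medians divide opposite ends of the 95% order-statistic intervals of both medians. They are therefore wider than a 95% interval of the ratio. The kept depth was 11550409 to 21936546 tags, and a site with no listed peak may hold signal below what that depth can call. Keeping 1 tag per position limits the tags of narrow, strong peaks.

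Members, classes and alternatives were chosen with earlier results of these data known. The distance to neighbouring regions, the classes by Mll2 gap and by H3K4me3 level, and the values without chromosome 13 were added after the values were seen. The regions named are the 5 with the strongest second Mll2 peak, the 3 with the most Menin peaks (ties by the highest Menin fold), the widest and the closest summits, no Menin peak and the highest serum 9175 fold, the highest H3K4me3 fold in replicate 1, and the most Mll2 peaks, and the 2 at each side of the width limit and with the most peaks in 1 serum and 1 in the other (ties by the serum 9175 fold). The counting was tested on simulated data of 4000 regions, where 413 of 413 members were found. The interval was tested apart from these, on independent binomial draws, where 944 of 1000 intervals held the true difference. Those draws had no regions or pairing, so they do not test the interval on paired regions. Python 3.11.15 with numpy 2.4.6, pandas 2.3.3, scipy 1.17.1 and matplotlib 3.10.9 was used. The series' other samples (RNA-seq, 4C-seq, knockdown, mutant) were not used here.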

Additional observations from a re-analysis of the deposited data

How the results depend on the processing

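Of 93 values under alternatives, 64 were counted as unchanged, 28 moved and 1 difference had an interval that came to include 0. A difference of shares counted as unchanged where it kept its sign and its interval still excluded 0, whatever its size. The Menin differences, from 10.4 to 38.1 points, are therefore all among the 64. A median, share or ratio counted as unchanged where it stayed inside the interval of the reported value. Only the Menin tags per kb changed direction, with a ratio of 0.893 that became 1.23 per kb of region. By fold it was 0.998 and without width pairing 0.993, both still below 1. The number of members was 258 with Mll2 peaks less than 200 bp apart merged, 228 at a score of at least 100, 118 at a fold of at least 10, 1208 with 2 or more peaks of serum 9172 and 1 or more of serum 9175, and 875 with the reverse. The median summit distance was 1763, 1622 and 1603.5 bp under the first 3 of these, 1353 bp with 1 or more of serum 9172 and 2 or more of serum 9175, 1587 bp with no width limit, 1303 bp at widths up to 4000 bp and 1342 bp in serum 9172. The H3K4me3 summit lay between the outermost summits of both sera in 71.1%, and 52.0% of members paired one to one by summits within 250 bp. The neighbour difference was 7.63 points at an Mll2 fold of at least 10, where fewer members were left.

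Without width pairing the tag ratios were 0.860 and 0.745 for H3K4me3 replicates 1 and 3, 0.818 for serum 9172 and 0.797 for serum 9175. Paired on width and on replicate 1 tags per kb, an alternative added after the values were seen, they were 0.987, 0.712, 0.795 and 0.770, where the first is set by the pairing. Per kb of region they were 0.923 and 0.935 for the sera, and by fold 0.743 for serum 9172. Intervals of the ratio came to include 1 for H3K4me3 replicate 1 paired on level (0.863 to 1.13), serum 9175 per kb of region (0.815 to 1.035), Menin by fold (0.915 to 1.09) and Menin without width pairing (0.958 to 1.03). The Menin difference kept its direction with an interval above 0 under 20 alternatives, from 10.4 to 38.1 points.

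Without H3K4me3 replicate 1 or 3 the number of members was 385 to 510, the summit distance 1439.5 to 1454 bp, the Menin difference 13.5 to 26.1 points, the neighbour difference 19.5 to 19.6 points, and the H3K4me3 summit share 59.8% in replicate 3. No paired analysis was possible because each serum and Menin had 1 library and no groups of replicates were compared. The causes of these shifts were not tested.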
